A study of Mus musculus with 4 samples.

Results

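The measured Wnt ligand, receptors, secreted modulators and nuclear effectors were followed in SW620 cells, a line from a human colon carcinoma, treated with F5446 or left untreated. F5446 is a small-molecule inhibitor that the labels call selective for SUV39H1, an enzyme that methylates histone H3 at lysine 9 (H3K9). Genes were taken by symbol, from the families of the pathway (WNT, FZD, LRP5 and LRP6, ROR, RYK, SFRP, RSPO, TLE, BCL9, PYGO and the like). That gave 40 of the 14884 genes that the platform annotation names. F5446 cells had received 50 nM for 2 days (2 arrays), and Ctrl cells were untreated cells of the same line (2 arrays). All 4 arrays came from this single line, grown in serum-containing medium, and no step of the treatment other than F5446 is recorded. Arrays of a group are called biological replicates in the series, but separate cultures are not recorded. The p-values therefore rest on array-to-array spread, which may be technical. Mouse is entered as the organism of the samples, yet the cell line is human and the platform annotation names human genes, so the data were read as human.

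Wnt proteins are lipid-modified ligands that need the carrier protein WLS to leave the cell. On a receiving cell they bind a Frizzled receptor together with LRP5 or LRP6, which stalls a complex of AXIN, APC, GSK3 and casein kinase 1 that otherwise marks beta-catenin for destruction. Beta-catenin that escapes enters the nucleus, joins a TCF or LEF factor with the cofactors BCL9 and PYGO, and takes the place of TLE-type repressors at target genes. R-spondins and their LGR receptors raise the number of Frizzled receptors on the cell surface, whereas SFRP proteins and WIF1 bind Wnt ligands outside the cell. In the colonic crypt this pathway maintains stem cells. SW620 cells, like most colon carcinomas, carry a truncated APC, which leaves beta-catenin signalling active with little need of a ligand.

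Values are log2 signals of 1 probe set per gene, so a difference of 1 is a 2-fold change. A gene was called higher or lower where limma's test of F5446 minus Ctrl gave a Benjamini-Hochberg adjusted p under 0.05 over all 14884 genes. The test's standard error (SE) draws on other genes of similar signal as well as on the gene's own arrays. Each array held 53617 probe sets, and arrays of a group correlated across genes at r = 0.995 (F5446) and 0.994 (Ctrl). F5446 and Ctrl cells differed at 40.9% of all genes, with 18.2% called higher and 22.7% called lower (2714 and 3372 genes, or 3420 and 2735 after centring every array), so a change by itself was common. The mRNA of SUV39H1 was also lower after F5446, at 7.47 and 7.36 in F5446 cells against 9.12 and 9.17 in Ctrl cells. That of the related gene SUV39H2 fell too, by 1.08 on the log2 scale. Of 9 measured epithelial and colonic markers, EPCAM read 10.2 and 10.3 in F5446 cells against 11.0 and 11.1 in Ctrl cells, and KRT18 read 10.69 and 10.71 in F5446 cells against 11.80 and 11.82 in Ctrl cells. Of the 9, 5 fell, VIL1 the most at -3.87 on the log2 scale, and 2 rose, KRT19 by 0.48 and CEACAM5 by 1.93. The summed linear signal of these 9 markers was 4794 and 4844 in F5446 cells against 8370 and 8401 in Ctrl cells, and its part in the results below was not tested. Only 4 of 10 immune and 4 of 10 stromal or endothelial markers were measured. Of these, CD14, PECAM1, DCN and VWF stayed under 4.43, the median of all probe sets, on every array, and NKG7 read 5.26 and 5.06 in F5446 cells against 5.05 and 5.12 in Ctrl cells. LYZ fell by 1.79 and LUM fell by 3.02 on the log2 scale and CD68 rose by 3.68, and the part of these changes in the results below was not tested.

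F5446 cells had less of several Frizzled receptors (6 of 10, or 4 of 10 after centring every array), of the secreted inhibitor SFRP5, of the Wnt carrier WLS and of the R-spondin receptor LGR4. They had more FZD7, LGR6, AXIN1 and GSK3A, and more BCL9L on the brighter of its probe sets. In bulk RNA such as this, fewer cells that express a gene and less of its RNA per cell cannot be told apart. In all, 15 of the 40 genes fell (37.5%, against 22.7% of all genes), 5 rose (12.5%, against 18.2%) and 20 did not pass. Their median log2 fold change was -0.13, against -0.05 over all genes. A fall of at least 2-fold was seen in 6 genes (15%, against 7.32% of all genes) and a rise of that size in 1 (2.5%, against 5.4%). The 2 groups of arrays did not overlap in 28 of the 40 genes (70%, against 66.2% of all genes). Of the 40, 12 had a mean signal under the median of all probe sets, and 2 of these were called, against 8.12% of all such dim genes. Of the 28 above that median, 18 were called, against 55.7% of all genes above it. The table has no detection calls, so it was not determined which of the 12 were expressed.

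**Figure D1:**
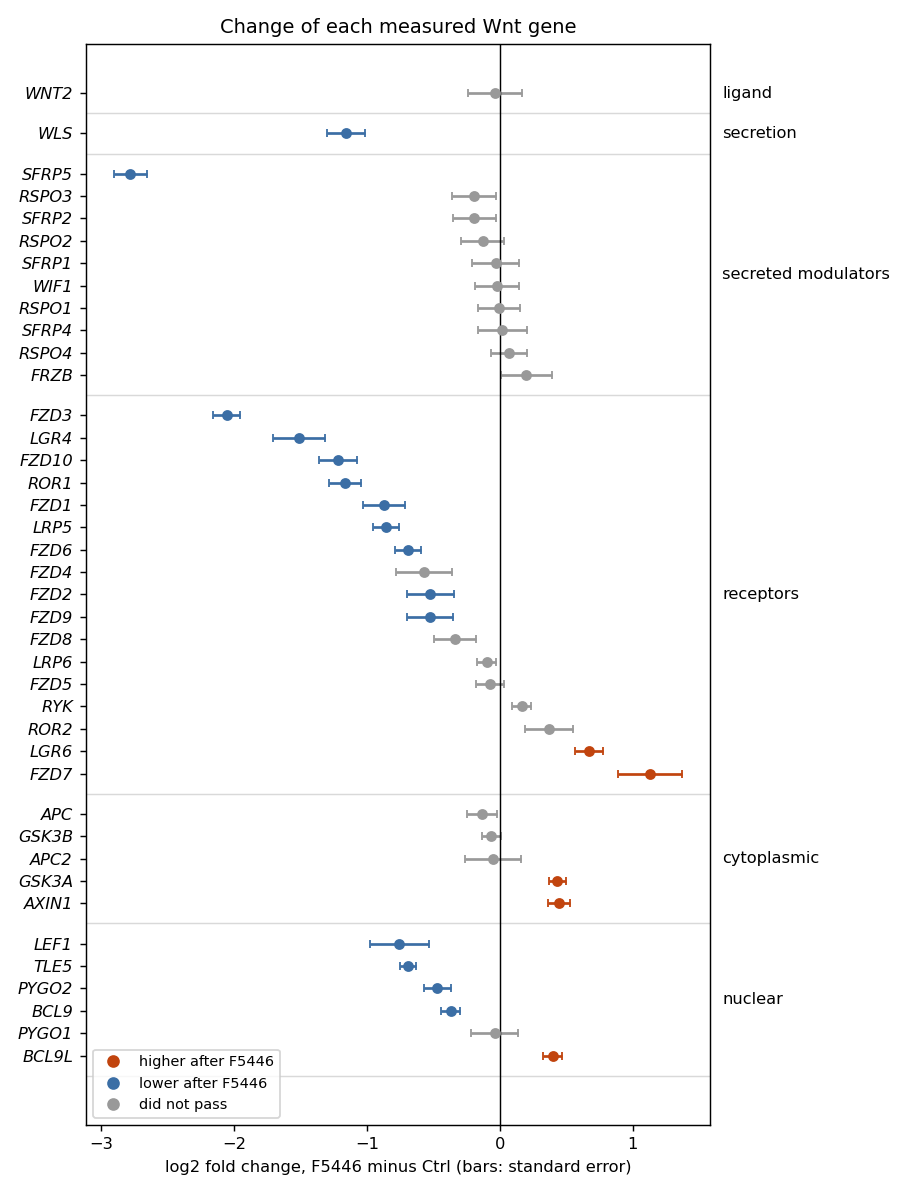
Log2 fold change (F5446 minus Ctrl, x axis) of each of the 40 measured Wnt genes, grouped by role, with bars for the standard error of limma's fit on 2 arrays per group. Genes that fell are blue, genes that rose are red and genes that did not pass are grey. SFRP5 at -2.78 and FZD3 at -2.06 lie farthest to the left, and FZD7 at 1.13 farthest to the right.

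Among ligands, only WNT2 was measured. It read 3.39 and 3.44 in F5446 cells against 3.19 and 3.71 in Ctrl cells, all under the median of all probe sets, and the groups overlapped (adjusted p = 0.93). Wnt secretion was represented by WLS (probe set 16688339), the membrane protein that carries Wnt ligands to the cell surface. Its log2 signal was 5.63 and 5.89 in F5446 cells against 6.78 and 7.06 in Ctrl cells. Both treated arrays lay below both untreated arrays, by more than the gap between replicates. WLS fell 2.23-fold, with a log2 fold change of -1.16 ± 0.14 (SE, n = 2 each, limma adjusted p = 0.000152).

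Among secreted modulators, 1 of 10 was called, against 40.9% of all genes. Of the 10, 6 had a mean under the median of all probe sets. Among all genes, 8.12% of those under it were called and 55.7% of those above it. SFRP5 (probe set 16717240) encodes a secreted protein with a Frizzled-like domain that binds Wnt ligands. It read 5.30 and 5.16 in F5446 cells against 8.14 and 7.88 in Ctrl cells. The groups were far apart, with replicate gaps small beside the difference between them. SFRP5 fell 6.88-fold, with means of 5.23 ± 0.093 in F5446 cells and 8.01 ± 0.18 in Ctrl cells (SD, n = 2 each). Its log2 fold change was -2.78 ± 0.12 (SE, limma adjusted p = 2.95e-07). This was the largest change among the 40 genes and placed SFRP5 at rank 101 of 14884 from the lowest log2 fold change. The other 9 modulators, which were SFRP1, SFRP2, SFRP4, FRZB, WIF1 and RSPO1 to RSPO4, did not pass. Their arrays read at most 5.48 in F5446 cells against at most 5.42 in Ctrl cells, and their log2 fold changes lay between -0.19 and 0.20 (smallest adjusted p = 0.43). Of these 9, 6 had a mean under the median of all probe sets, so a change in them may have gone unseen on these arrays.

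Receptors and co-receptors made up 17 of the 40 genes, of which 9 fell, 2 rose and 6 did not pass, at a median log2 fold change of -0.52. With arrays centred on their medians 7 fell and 3 rose. Among all 14884 genes, 3372 fell and 2714 rose as deposited (22.7% and 18.2%), and 2735 fell and 3420 rose with centred arrays. Among the 10 Frizzled genes alone, 6 fell, 1 rose and 3 did not pass, and with centred arrays 4 fell and 1 rose. FZD3 (probe set 17067410) is a Frizzled known above all for planar cell polarity and axon guidance. It read 5.53 and 5.56 in F5446 cells against 7.61 and 7.60 in Ctrl cells. Replicates were nearly identical in both groups. FZD3 fell 4.16-fold, a log2 fold change of -2.06 ± 0.10 (SE, n = 2 each, adjusted p = 5.94e-07), and stood at rank 242 of 14884 from the lowest. FZD6, its closest relative among Frizzleds, also acts in planar polarity. It read 7.06 and 6.90 in F5446 cells against 7.70 and 7.65 in Ctrl cells, with no overlap, and fell 1.62-fold (log2 fold change -0.70 ± 0.10, adjusted p = 0.000348).

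FZD10, which belongs to the subfamily of FZD4 and FZD9, read 6.16 and 5.76 in F5446 cells against 7.17 and 7.19 in Ctrl cells. The treated arrays differed from each other more than the untreated ones, but both lay at least 1 log2 unit below them. FZD10 (probe set 16759153) fell 2.33-fold (log2 fold change -1.22 ± 0.14, SE, n = 2 each, adjusted p = 0.000103). FZD9 was dim, at 3.89 and 3.72 in F5446 cells against 4.22 and 4.45 in Ctrl cells. It fell by 0.52 on the log2 scale (adjusted p = 0.038), a call that ended without any 1 of the 4 arrays (adjusted p 0.052 to 0.198), with arrays centred on their medians (0.10), with all probe sets fitted together (0.099) and with the replicate block (0.065). FZD4 read 5.18 and 5.89 in F5446 cells against 6.07 and 6.15 in Ctrl cells. Both treated values were lower, yet they differed by 0.71 between replicates, and the log2 fold change of -0.57 ± 0.21 missed the threshold (adjusted p = 0.058, 95% interval -1.06 to -0.09). FZD4 did pass when dim genes were left out (0.034), with quantile normalization (0.047), with the replicate block (0.048) and without F5446 replicate 2 (log2 fold change -0.93, 0.0082). Without F5446 replicate 1 its log2 fold change was -0.22 (0.38).

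FZD1, FZD2 and FZD7 form another subfamily of Frizzleds, and they moved in opposite directions. FZD7 (probe set 16889563), a receptor known to serve intestinal stem cells in the mouse, read 5.35 and 4.90 in F5446 cells against 4.30 and 3.69 in Ctrl cells. Both treated arrays were above both untreated arrays, although replicates differed by 0.46 and 0.61. FZD7 rose 2.19-fold (log2 fold change 1.13 ± 0.24, SE, n = 2 each, adjusted p = 0.00402), and the call ended without F5446 replicate 1 (log2 fold change 0.90, adjusted p = 0.076). The untreated mean of FZD7 was under the median of all probe sets, so the rise may be larger than measured. It may also be smaller, since its log2 fold change ran from 0.82 to 1.44 over the alternatives. FZD1 read 3.95 and 4.03 in F5446 cells against 4.95 and 4.78 in Ctrl cells, without overlap, and fell 1.83-fold (log2 fold change -0.87 ± 0.16, adjusted p = 0.00183). Both treated values were under the median of all probe sets, so the fall of FZD1 may be larger than measured. It may also be smaller, since its log2 fold change ran from -0.955 to -0.745 over the alternatives. FZD2 read 4.48 and 4.10 in F5446 cells against 4.85 and 4.79 in Ctrl cells and fell by 0.52 on the log2 scale (adjusted p = 0.042). The FZD2 call ended with arrays centred on their medians (adjusted p = 0.11), with all probe sets fitted together (0.11), without Ctrl replicate 1 (0.16), without Ctrl replicate 2 (0.12) and without F5446 replicate 2 (log2 fold change -0.34, 0.26). In the remaining subfamily neither gene passed. FZD5 read 7.22 and 7.44 in F5446 cells against 7.45 and 7.35 in Ctrl cells (adjusted p = 0.66, 95% interval of the log2 fold change -0.31 to 0.17), and FZD8 changed by -0.34 ± 0.16 (adjusted p = 0.14).

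**Figure D2:**
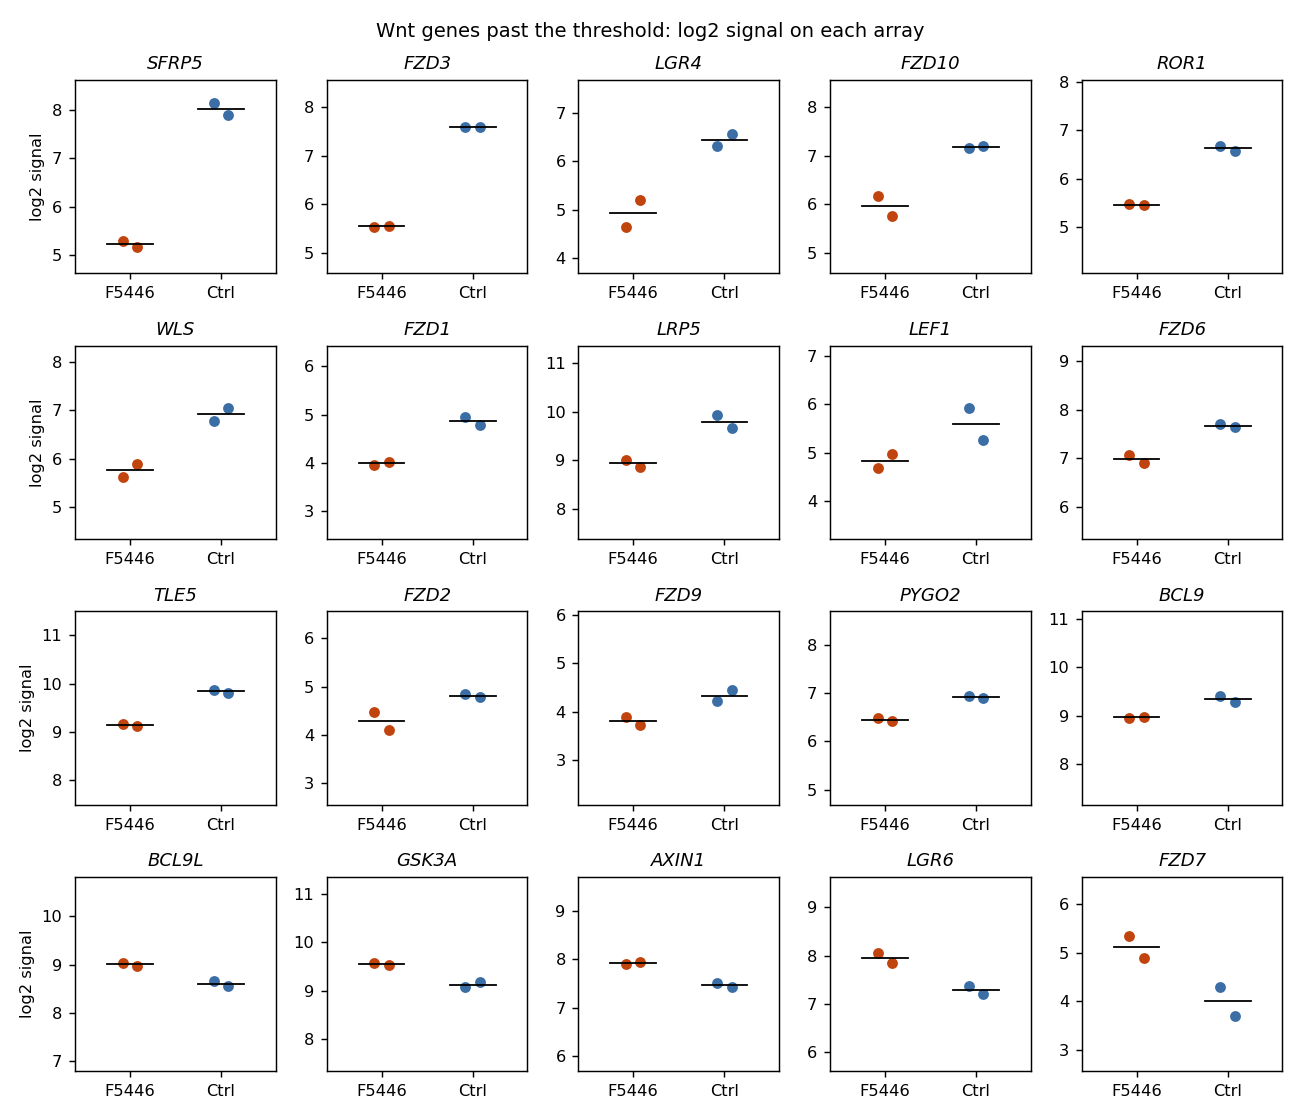
Log2 signal on each array for the 20 Wnt genes that passed the threshold, ordered from the largest fall to the largest rise. Points are arrays, F5446 at left in red and Ctrl at right in blue, bars are group means, and every panel spans 4 log2 units on an axis that does not start at 0. The groups do not overlap in any of the 20 panels, which the test on these same arrays selected, nor in 66.2% of all genes. The gap between replicates is widest relative to the change in LEF1 and FZD2.

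LRP5 and LRP6 are the co-receptors that bind AXIN once a Wnt ligand has engaged a Frizzled. LRP5 (probe set 16728066) read 9.01 and 8.86 in F5446 cells against 9.93 and 9.66 in Ctrl cells. Every treated value was lower than every untreated one. LRP5 fell 1.81-fold (log2 fold change -0.86 ± 0.10, SE, n = 2 each, adjusted p = 8.39e-05). LRP6 read 9.56 and 9.42 in F5446 cells against 9.62 and 9.55 in Ctrl cells. Its groups overlapped and its log2 fold change of -0.10 did not pass (adjusted p = 0.32, 95% interval -0.26 to 0.06). With arrays centred on their medians it was 0.03.

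The R-spondin receptors LGR4 and LGR6 moved apart. LGR4 (probe set 16736821), which with R-spondin shields Frizzleds from removal by the ubiquitin ligases RNF43 and ZNRF3, read 4.65 and 5.21 in F5446 cells against 6.31 and 6.56 in Ctrl cells. Both treated arrays were lower by over 1 log2 unit. LGR4 fell 2.85-fold (log2 fold change -1.51 ± 0.19, SE, n = 2 each, adjusted p = 0.000191). LGR6, a relative known as a stem cell marker in mouse skin, read 8.06 and 7.84 in F5446 cells against 7.36 and 7.21 in Ctrl cells. It rose 1.59-fold without overlap (log2 fold change 0.67 ± 0.10, adjusted p = 0.000705). Their relative LGR5, an intestinal stem cell marker and target of the pathway, is outside this set of genes. It read 5.36 and 5.05 in F5446 cells against 9.85 and 9.71 in Ctrl cells.

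Receptors for non-canonical Wnt signals were ROR1, ROR2 and RYK, transmembrane proteins with kinase-like domains. ROR1 (probe set 16665588) read 5.47 and 5.45 in F5446 cells against 6.68 and 6.58 in Ctrl cells. Replicates were close to each other, and the groups were apart. ROR1 fell 2.25-fold (log2 fold change -1.17 ± 0.12, SE, n = 2 each, adjusted p = 4.39e-05). ROR2 read 4.60 and 4.61 in F5446 cells against 4.04 and 4.43 in Ctrl cells and did not pass (log2 fold change 0.37, adjusted p = 0.14). RYK read 8.80 and 8.82 in F5446 cells against 8.62 and 8.68 in Ctrl cells. RYK missed the threshold as deposited (log2 fold change 0.16 ± 0.07, adjusted p = 0.096) and passed with arrays centred on their medians (0.29, adjusted p = 0.0076).

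Among cytoplasmic genes, 2 of 5 were called, both higher, against 40.9% called among all genes, and 3 did not pass. All 5 were above the median of all probe sets, where 55.7% of all genes were called and 25.2% were higher. AXIN1 (probe set 16822408), the scaffold of the destruction complex, read 7.90 and 7.93 in F5446 cells against 7.51 and 7.44 in Ctrl cells. The groups did not overlap. AXIN1 rose 1.36-fold (log2 fold change 0.44 ± 0.08, SE, n = 2 each, adjusted p = 0.00225). GSK3A, a kinase of the complex, read 9.58 and 9.54 in F5446 cells against 9.08 and 9.18 in Ctrl cells and rose 1.35-fold (log2 fold change 0.43 ± 0.07, adjusted p = 0.000597). Its paralog GSK3B read 9.47 and 9.64 in F5446 cells against 9.59 and 9.65 in Ctrl cells. Those values overlapped, and the 95% interval of the log2 fold change ran from -0.23 to 0.10 (adjusted p = 0.55). APC, the scaffold that is truncated in this line, read 6.18 and 6.10 in F5446 cells against 6.24 and 6.32 in Ctrl cells (log2 fold change -0.14 ± 0.12, adjusted p = 0.42). APC2 was not called either (adjusted p = 0.89), and its untreated arrays differed by 0.64.

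Of 6 nuclear genes, 4 fell, 1 rose and 1 did not pass, where 22.7% of all genes fell and 18.2% rose. TLE5 (probe set 16867047), the short Groucho-family protein also called AES, read 9.16 and 9.13 in F5446 cells against 9.87 and 9.80 in Ctrl cells. The replicate gaps were small and the groups were apart. TLE5 fell 1.62-fold (log2 fold change -0.69 ± 0.06, SE, n = 2 each, adjusted p = 1.90e-05). LEF1, a DNA-binding partner of beta-catenin, read 4.69 and 4.98 in F5446 cells against 5.92 and 5.26 in Ctrl cells. Its untreated arrays differed by nearly as much as the group means did, though no treated value reached an untreated one. LEF1 fell 1.69-fold (log2 fold change -0.76 ± 0.22, adjusted p = 0.022). The call ended without Ctrl replicate 1 (log2 fold change -0.43, adjusted p = 0.17), F5446 replicate 1 (-0.61, 0.20) or F5446 replicate 2 (-0.90, 0.077). It also ended with the replicate block (0.052), without an intensity trend (0.062) and with all probe sets fitted together (0.098).

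PYGO2 and BCL9 bridge beta-catenin to the transcription machinery. PYGO2 read 6.48 and 6.42 in F5446 cells against 6.94 and 6.90 in Ctrl cells, without overlap, and fell 1.39-fold (log2 fold change -0.47 ± 0.10, adjusted p = 0.00492, or 0.052 without F5446 replicate 2). BCL9 read 8.96 and 8.99 in F5446 cells against 9.41 and 9.28 in Ctrl cells and fell 1.29-fold (log2 fold change -0.37 ± 0.07, adjusted p = 0.00213, or -0.24 with arrays centred). The paralog BCL9L read 9.04 and 8.97 in F5446 cells against 8.66 and 8.55 in Ctrl cells. It rose 1.32-fold on this probe set (log2 fold change 0.40 ± 0.07, adjusted p = 0.00181). BCL9L was the one gene of the 40 with a second named probe set (16732043), which read 5.79 and 6.13 in F5446 cells against 6.25 and 6.23 in Ctrl cells. That dimmer probe set changed by -0.28 and did not pass (adjusted p = 0.30 over all probe sets), so the direction of BCL9L rests on the brighter one. The mean of both gave a log2 fold change of 0.06 (adjusted p = 0.69). PYGO1 was under the median of all probe sets and did not pass (adjusted p = 0.90).

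**Figure D3:**
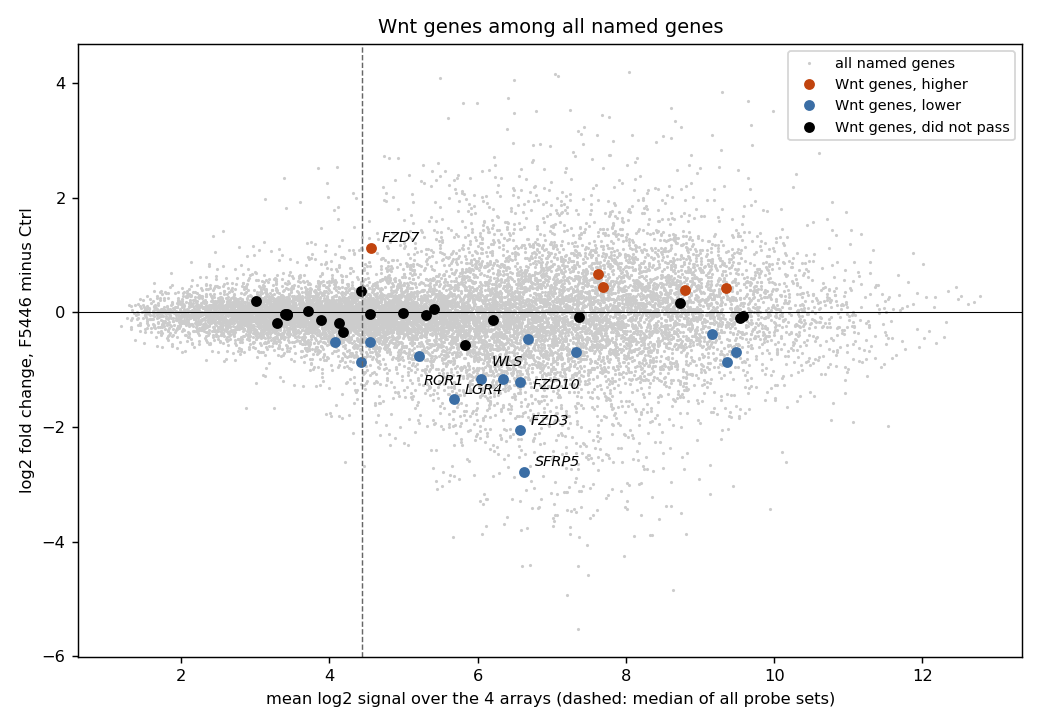
Log2 fold change (F5446 minus Ctrl, y axis) against mean log2 signal over the 4 arrays (x axis) for all 14884 named genes in grey and the 40 Wnt genes in colour. The dashed line is the median of all probe sets, 4.43. The 6 Wnt genes that fell at least 2-fold lie between SFRP5 at -2.78 and WLS at -1.16, and 10 of the 20 that did not pass lie left of the line.

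Some relatives fell together (FZD3 with FZD6, FZD1 with FZD2, FZD9 with FZD10). Of these, the calls of FZD2 and FZD9 ended with arrays centred on their medians. Other relatives differed in their change. For 6 of the pairs that differed, the difference is given within each array, where a shift of a whole array cancels. These pairs were chosen after their values were seen, so that the groups stand apart in them is a description, and no exact permutation test of 2 arrays against 2 can go below a two-sided p of 0.333, the value each pair gave. The log2 difference LRP5 minus LRP6 was -0.55 and -0.55 in F5446 cells against 0.31 and 0.10 in Ctrl cells, a change of -0.76. LGR4 minus LGR6 was -3.41 and -2.64 in F5446 cells against -1.05 and -0.64 in Ctrl cells, a change of -2.18. FZD7 minus FZD1 was 1.40 and 0.87 in F5446 cells against -0.64 and -1.09 in Ctrl cells, a change of 2.00. The untreated arrays of FZD7 and the treated arrays of FZD1 averaged under the median of all probe sets, so this value rests on dim signals. The change was 1.66 for FZD7 minus FZD2, -1.54 for ROR1 minus ROR2 and -0.77 for BCL9 minus BCL9L, or -0.43 with the mean of both BCL9L probe sets. Only the change between groups can be read from these differences, since probe sets of different genes differ in brightness.

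**Figure D4:**
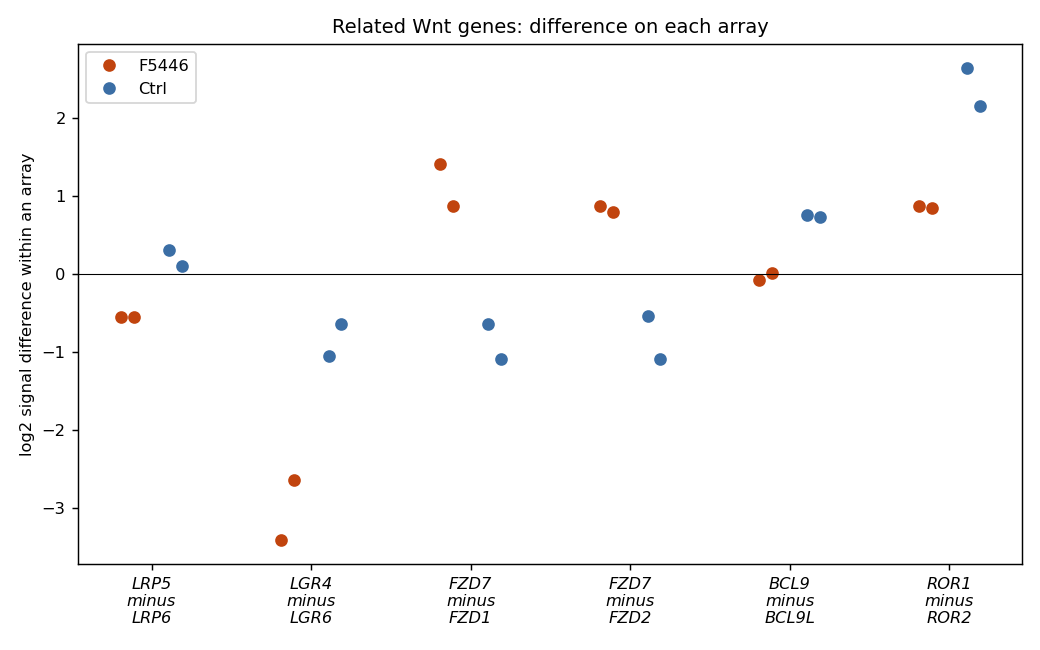
Log2 signal of 1 gene minus that of its relative on the same array (y axis) for 6 pairs, F5446 at left in red and Ctrl at right in blue. Each point is an array. The pairs were chosen for their difference, and the changes run from -2.18 for LGR4 minus LGR6 to 2.00 for FZD7 minus FZD1.

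Other genes of the pathway were taken from 4 lists, whose counts stand beside 18.2% higher and 22.7% lower among all genes. Of 20 measured feedback targets and secreted antagonists, 13 fell and 4 rose (median log2 fold change -1.17), led by falls of LGR5 (-4.58) and of NOTUM (-3.53), a Wnt-inactivating enzyme, and by a rise of DKK1 (4.12), which blocks LRP co-receptors. RNF43 and ZNRF3, the ligases that remove Frizzleds from the surface and that LGR4 opposes, fell by 1.15 and 1.28 on the log2 scale. AXIN2, a paralog of AXIN1 and a feedback target, fell by 1.08, whereas AXIN1 rose by 0.44. Beside DKK1, the genes of the feedback and antagonist list that rose were MYC by 1.19, CCND1 by 0.67 and DKK3 by 0.60. Of 25 listed accessories of the destruction complex, only 11 were measured. Among the 11, 5 rose and 1 fell (median 0.09, or 0.22 with arrays centred), and 5 rose and 2 fell after quantile normalization. The ubiquitin ligase subunit SKP1 rose by 1.14 on the log2 scale, USP34, a deubiquitinase that acts on AXIN, by 0.92, and SIAH1, a ubiquitin ligase, by 0.81. BTRC, which recognises phosphorylated beta-catenin, rose by 0.80. The 1 accessory that fell as deposited was AMER1, by 0.52.

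Of 22 listed cofactors of beta-catenin, 19 were measured. Among the 19, 4 rose and 7 fell (median -0.10, or 0.03 with arrays centred, where 6 rose and 6 fell). RUVBL1 and RUVBL2, ATPases of chromatin complexes, fell by 1.64 and 1.15 on the log2 scale and the kinase HIPK2 fell by 1.53. The 4 cofactors that rose as deposited were CREBBP by 0.93, KLF4 by 0.78, EP300 by 0.68 and CBY1 by 0.43. Of 33 listed genes of planar polarity and other non-canonical signalling, only 14 were measured. Among the 14, 2 rose and 5 fell (median -0.10, or 0.03 with arrays centred, where 3 rose and 4 fell). PTK7, a Wnt co-receptor of planar polarity, fell by 1.68 on the log2 scale. DAAM1, a formin that acts downstream of Dishevelled, rose by 1.11, and PRICKLE2, a planar polarity protein, fell by 0.74. Beside these lists, the 40 Wnt genes had a median of -0.13, or -0.01 with arrays centred, where 6 rose and 13 fell. Centring moved all genes likewise, from a median of -0.05 to 0.08.

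**Figure D5:**
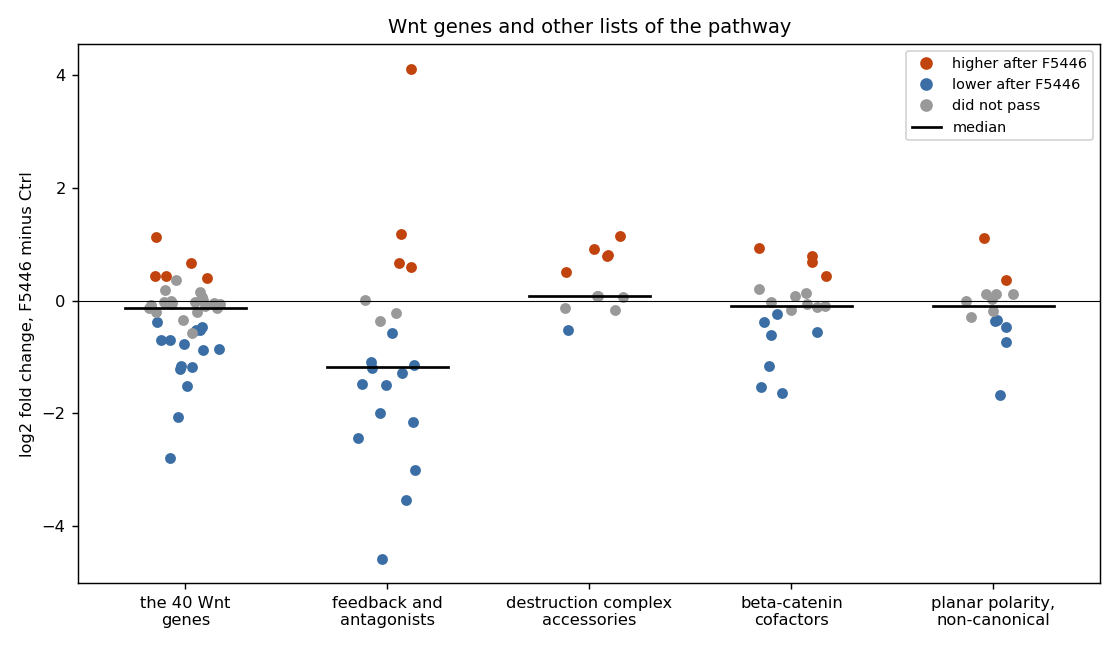
Log2 fold change (F5446 minus Ctrl, y axis) of the 40 Wnt genes and of 4 other lists of the pathway, with each point a gene and the black bar the list's median. Red points rose, blue points fell and grey points did not pass. The feedback and antagonist list has its median at -1.17, and the medians of the other groups of genes lie between -0.13 and 0.09 as deposited.

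Of 14 core genes of the pathway, 7 were measured. CTNNB1, DVL1, DVL2, DVL3, TCF7, TCF7L1 and TCF7L2 had no probe set named in the annotation used and were not analysed here. Beta-catenin itself, the Dishevelled proteins and the TCF factors are therefore not covered by the counts above, nor are Wnt ligands other than WNT2. The same holds for PORCN, CTNNBIP1, TLE1 to TLE4, TLE6 and the casein kinase genes CSNK1A1, CSNK1D and CSNK1E.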

How the data were processed

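Total RNA of SW620 cells was measured on 4 arrays of 1 colour, 2 per group, as biotin-labelled sense-strand cDNA, per the labels' protocols. The authors deposited a table of processed values, 1 for each of 53617 probe sets on each array (0.71 to 13.8). Its scale is unstated, and log2 was inferred because the maximum lies between the natural log (11.09) and the log2 (16) of a 16-bit range. Partek is the only program named, per the submitters' processing notes. Not given in the sources used here are the background correction, the summary of probes and any scaling between arrays. Scaling would hide a difference in total RNA. Precision is limited by the 2 arrays per group.

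The platform annotation gives 16098 probe sets 1 gene symbol each, none several, and 37519 none. Per gene, the probe set with the highest mean over the 4 arrays was used, without a filter on dim genes. The deposited log2 values of 14884 genes went into limma 3.58.1 under R 4.3.3 (lmFit, eBayes with intensity trend, group as the only term, two-sided, Benjamini-Hochberg over all genes). The fit was tested on simulated arrays of 14884 genes. Alternatives were 2 rescalings, 2 variance models, the mean of probe sets, all probe sets, a dim-gene filter, a replicate block and leaving out each array. The genes and lists were chosen with earlier results of these data known. All 40 genes are accounted for. Those past the threshold and the core genes have values on each array. Of the other lists, the 3 largest changes past the threshold and genes tied to a member's role are named. All genes that rose in the feedback and antagonist list and in the cofactor list are named too, as is the accessory that fell. RNF43, ZNRF3, AXIN2, BTRC, AMER1, MYC, CCND1, DKK3, CREBBP, KLF4, EP300, CBY1 and SUV39H2 were named after their values were seen. No human sequence or gene position was used here.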

Additional observations from a re-analysis of the deposited data

How the results depend on the processing

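Of the 20 called genes, 14 kept their direction and their call in each of the 12 alternatives that held them. The exceptions were FZD2, FZD7, FZD9, LEF1, PYGO2 and BCL9L. Over all alternatives 12 to 16 of the 40 genes fell and 4 to 6 rose. Centring each array on the median of its named genes moved the median of all genes by 0.13 on the log2 scale and turned the split of all genes into 3420 higher and 2735 lower, against 2714 and 3372 as deposited. Over all 53617 probe sets, most of them without a gene symbol, 6274 were higher and 5483 lower. Why this split also turned was not tested. Some genes that did not pass changed sign. With centred arrays the log2 fold changes were 0.073 for APC2, 0.054 for FZD5, 0.061 for GSK3B, 0.026 for LRP6, 0.087 for PYGO1, 0.12 for RSPO1, 0.095 for SFRP1, 0.10 for WIF1 and 0.092 for WNT2. Quantile normalization gave -0.0061 for SFRP4. With 1 array left out, the log2 fold change ran from -0.38 to 0.27 for APC2, -0.18 to 0.040 for FZD5, -0.15 to 0.017 for GSK3B, -0.18 to 0.11 for PYGO1, -0.14 to 0.13 for RSPO1, -0.22 to 0.16 for SFRP1, -0.17 to 0.20 for SFRP4, -0.048 to 0.0040 for WIF1 and -0.29 to 0.22 for WNT2. The replicate numbers did not pair the arrays (correlation of replicate deviations over genes r = 0.04). With the replicate block 14 of the 40 genes fell and 5 rose, and the calls of FZD9 and LEF1 were lost while FZD4 was gained. Signals under the median of all probe sets limit what can be seen for 12 of the genes.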
